A study of Mus musculus with 5 samples.

Results

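Signaling through the receptor Tie2 (gene Tek) and through the VEGF receptors was followed in the injured mouse retina with 10 genes, which were chosen by symbol from the 25655 genes in the count table. They were the receptors Tek and Tie1, the angiopoietins Angpt1 and Angpt2, the VEGF receptors Kdr and Flt1, the ligands Vegfa and Pgf, and the endothelial adhesion molecules Pecam1 and Cdh5. All 10 passed the filter on low counts and were measured in all 5 retinas. Total RNA of the whole retina was sequenced 7 days after optic nerve crush (ONC) in the left eye of wildtype C57BL/6 mice of 8 to 10 weeks. The mice received Sorbinil, an inhibitor of the polyol pathway enzyme aldose reductase, at 10 mg/kg or the vehicle DMSO, by intraperitoneal injection from the day before the crush and then daily. The comparison, which asked how aldose reductase inhibition changed gene expression in the injured retina, held 3 retinas of DMSO mice, replicates 1, 2 and 3, compared to 2 of Sorbinil mice, replicates 1 and 3, and every retina, DMSO included, came from a crushed eye.

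Endothelial cells carry Tie2 on their surface, where Angpt1 from the neighbouring mural cells activates it and keeps the vessel wall quiet and tight. Angpt2, which is released by the endothelium itself, can block Tie2, and the orphan receptor Tie1 pairs with Tie2 and modulates it. Vegfa, made in the retina largely by Müller glia and other glia and neurons, drives growth and permeability of vessels through Kdr (VEGFR2), while Flt1 (VEGFR1) binds Vegfa and Pgf with high affinity and limits how much Vegfa reaches Kdr.

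The 5 retinas gave between 56096541 and 90288552 counts on genes, and no retinas were alike within the noise of counting. Sorbinil replicate 1 stood apart from the others, with a score of 75.8 on the first principal component (65.4% of the variance) compared to between -28.9 and -7.64 in the other 4 retinas. The mitochondrially encoded genes took 1.94% to 2.66% of the counts with DMSO, compared to 3.70% and 4.05% in Sorbinil replicates 1 and 3. Because whole retina was used, fewer cells of a type and less RNA per cell cannot be told apart in any value given here. All 12 genes of a list of endothelial markers were detected, but their summed level was 52.6 to 72.4 CPM (counts scaled to a common library size) in the DMSO retinas, compared to 83653 to 99531 CPM for a list of 12 rod genes, so the endothelium was a small part of the RNA measured.

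Tek and Tie1, the receptors of the angiopoietin system, and Cdh5, which encodes the junction protein VE-cadherin, were lower in the Sorbinil retinas, by between 2.49-fold and 3.69-fold. The VEGF receptors Kdr and Flt1, the ligands Angpt1, Angpt2, Vegfa and Pgf, and Pecam1 did not pass the threshold. A gene was called when its unadjusted p-value was at most 0.1 and its change at least 2-fold, which is the threshold used in the study, and 3 of the 10 genes were called lower compared to 1.35% of the 14992 genes tested. None of the 10 was called higher. The 10 genes were chosen with earlier results of these data known, and the paper names Tek among its downregulated genes. The share called is therefore not independent support. After Benjamini-Hochberg adjustment over all genes in edgeR, 0 of the 10 genes and 0% of all genes had an adjusted p-value under 0.05, the smallest adjusted p-value among the 10 was 0.758, and the unadjusted p-value was under 0.05 for 3 of the 10 and for 751 of all genes. The DESeq2 Wald test also gave 0 of the 10 with an adjusted p-value under 0.05.

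**Figure D1:**
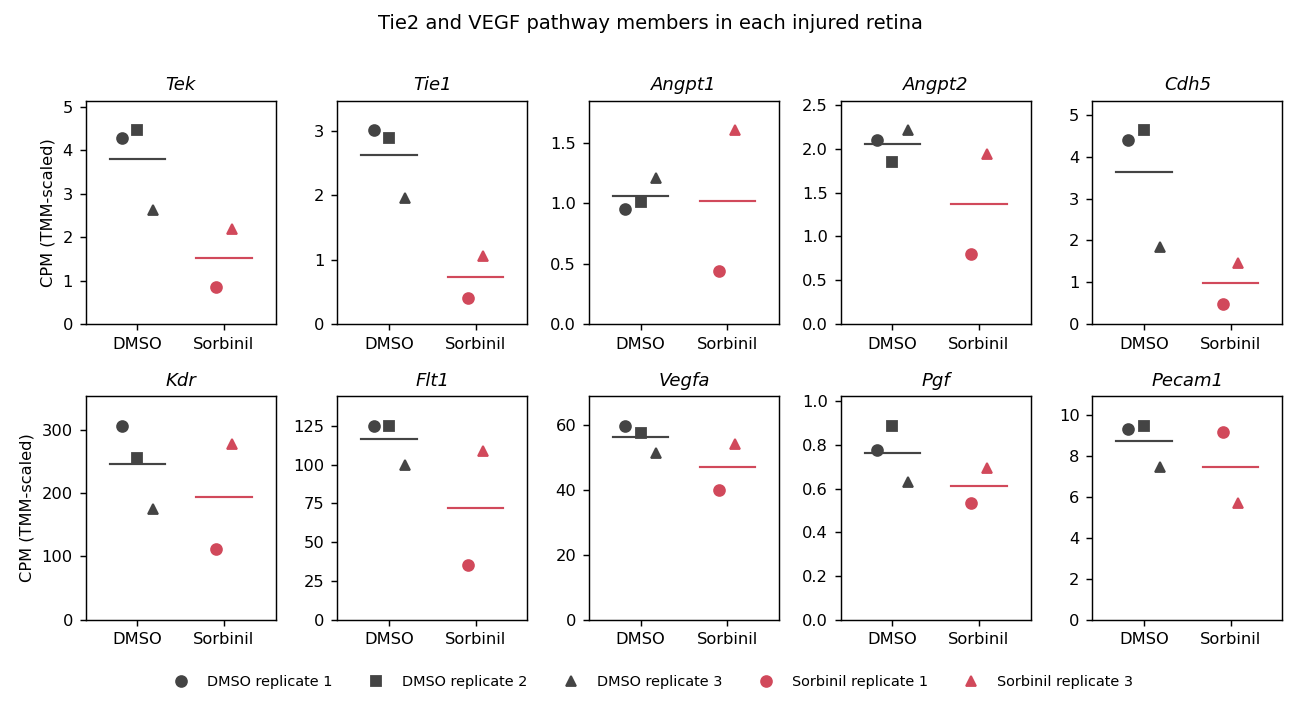
Expression of the 10 genes in each retina, in CPM on linear axes that start at 0, with 1 panel per gene. Points are single retinas (grey, DMSO; red, Sorbinil; the symbol gives the replicate number) and the horizontal line is the group mean. Both Sorbinil retinas lie below all 3 DMSO retinas for Tek, Tie1 and Cdh5, but the groups overlap for the other 7 genes.

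Tek lies at chr4:94627291-94763224 on the plus strand of GRCm39 (GENCODE vM39) and Tie1 on the same chromosome at chr4:118328385-118347261 on the minus strand. Tek was at 4.29, 4.47 and 2.63 CPM in DMSO replicates 1, 2 and 3, compared to 0.856 and 2.18 CPM in Sorbinil replicates 1 and 3. Both Sorbinil retinas were below every DMSO retina, although Sorbinil replicate 3 was close to DMSO replicate 3. The fitted log2 fold change was -1.31 (SE 0.48, 95% interval -2.51 to -0.12), with an unadjusted p-value of 0.0358 in edgeR's quasi-likelihood F-test. When Sorbinil replicate 1 was dropped, it moved to -0.79 (p-value of 0.0618 in edgeR), so that Tek was no longer called, whereas dropping Sorbinil replicate 3 moved it to -2.15.

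Tie1, the partner receptor of Tie2, had the clearer separation. Its levels were 3.01, 2.88 and 1.96 CPM in the DMSO retinas and 0.400 and 1.06 CPM in Sorbinil replicates 1 and 3, so the higher Sorbinil retina was well below the lowest DMSO retina. The log2 fold change was -1.83 (SE 0.49, 95% interval -3.04 to -0.62, edgeR p-value of 0.0105). Without Sorbinil replicate 1 it was -1.30 (edgeR p-value of 0.00938) and without Sorbinil replicate 3 it was -2.71, and Tie1 was called in all 12 alternative fits. The levels of Tie1 rest on few reads, 291, 230 and 109 in the DMSO retinas compared to 21 and 72 in the Sorbinil retinas. The exact two-sided permutation test over the 10 ways of splitting 5 retinas gave p = 0.1 for both Tek and Tie1, the smallest p that this design allows.

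Tie1 was lower relative to Tek in both Sorbinil retinas. The ratio of Tie1 to Tek counts was 0.701, 0.644 and 0.747 in the DMSO retinas and 0.467 and 0.486 in Sorbinil replicates 1 and 3. Both Sorbinil ratios were below all DMSO ratios and were close to each other, including that of the retina that stood apart. They rest on few counts, 21 of Tie1 and 45 of Tek in Sorbinil replicate 1 and 72 and 148 in Sorbinil replicate 3. Their closeness is therefore not a measure of their precision. On the log2 scale the difference in Tie1 to Tek was -0.55, with an exact permutation p = 0.1. The adjusted p over the 6 ratios that were compared was 0.24. In all, 3 of the 6 ratios separated the groups. The share of other gene pairs that do so was not computed, so this count is not a result about these pairs.

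The stretches of 250 bases before the transcription start are shown for the 2 Tie receptors, which were both called lower, and for the 2 VEGF receptors, which were not, so that their sequence can be read beside their levels. They were taken from RefSeq on GRCm38.p6, a different build from that of the gene positions above, at chr4:94739039-94739288 (plus strand) for Tek, chr4:118489850-118490099 (minus) for Tie1, chr5:75978456-75978705 (minus) for Kdr and chr5:147726012-147726261 (minus) for Flt1, and are written 5′ to 3′ on the strand of the gene. Capitals mark the core GGAA of the ETS family of transcription factors, to which the endothelial factor Erg belongs, and its reverse complement TTCC.
Tek: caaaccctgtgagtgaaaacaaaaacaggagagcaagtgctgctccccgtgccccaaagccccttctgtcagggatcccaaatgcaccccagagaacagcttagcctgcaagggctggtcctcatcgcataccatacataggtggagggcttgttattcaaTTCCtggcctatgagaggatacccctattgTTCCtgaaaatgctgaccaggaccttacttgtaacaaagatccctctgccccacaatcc
Tie1: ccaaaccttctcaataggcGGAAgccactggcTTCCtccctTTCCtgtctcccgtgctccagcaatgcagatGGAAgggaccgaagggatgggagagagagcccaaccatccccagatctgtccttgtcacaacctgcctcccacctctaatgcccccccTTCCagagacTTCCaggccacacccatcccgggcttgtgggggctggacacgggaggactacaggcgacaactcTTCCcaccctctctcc
Kdr: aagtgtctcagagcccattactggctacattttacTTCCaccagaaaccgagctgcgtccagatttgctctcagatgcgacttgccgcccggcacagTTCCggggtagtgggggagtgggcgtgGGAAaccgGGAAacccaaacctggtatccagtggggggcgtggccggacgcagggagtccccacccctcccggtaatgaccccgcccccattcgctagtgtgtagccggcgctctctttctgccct
Flt1: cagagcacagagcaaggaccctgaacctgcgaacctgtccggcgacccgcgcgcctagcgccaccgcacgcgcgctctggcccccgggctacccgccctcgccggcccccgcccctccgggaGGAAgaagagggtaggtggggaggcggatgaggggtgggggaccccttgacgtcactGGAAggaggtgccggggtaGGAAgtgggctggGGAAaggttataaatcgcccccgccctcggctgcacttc
Tie1 held 7 matches of GGAA on either strand, Kdr and Flt1 held 4 each, and Tek held 2. Of the 32851 RefSeq promoter stretches of this length, 93.4% held at least 1 match, with a median of 3, and 3.82% held at least 7. Thus Tie1 had many matches and Tek fewer than the median, although both genes were called lower, and the motif was chosen after the fold changes were known. A match is a description of the letters and not a binding site. Of the 10 genes, 6 had an entry (Tek, Tie1, Kdr, Flt1, Vegfa and Pgf), and Angpt1, Angpt2, Pecam1 and Cdh5 did not. The sequence ACGTG, a form of the core of the hypoxia response element, was searched with CACGT on the other strand. It occurred in 16.6% of all these stretches and in the stretch of 1 of the 2 annotated Vegfa starts. That was the start further downstream in the gene (chr17:46025164-46025413, minus strand). Its match lies inside the transcribed gene, in coding sequence of Vegfa, and is not read as a hypoxia response element. Other forms of the core were not searched. The stretch of the upstream start (chr17:46032378-46032627, minus strand) held no match.

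Angpt1, which encodes the activating ligand of Tie2 (chr15:42288058-42540417, minus strand), did not pass the threshold. It measured 0.951, 1.01 and 1.21 CPM with DMSO, 0.438 CPM in Sorbinil replicate 1 and 1.61 CPM in Sorbinil replicate 3. The Sorbinil retinas lay on either side of the DMSO range, so the fitted log2 fold change of -0.03 (95% interval -1.41 to 1.34) averaged opposite differences. Dropping Sorbinil replicate 1 gave 0.62, and dropping Sorbinil replicate 3 gave -1.26.

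Angpt2, which encodes the ligand that can block Tie2 (chr8:18739202-18791603, minus strand), measured 2.10, 1.85 and 2.21 CPM with DMSO and 0.799 and 1.94 CPM with Sorbinil. Only Sorbinil replicate 1 was below the DMSO range. Its log2 fold change was -0.57 (95% interval -1.61 to 0.46, edgeR p-value of 0.222), and it was -0.07 without Sorbinil replicate 1. Angpt2 lies within Mcph1 on the opposite strand, and 70.7% of its exon bases are also exon bases of Mcph1, which had a mean of 441 counts per retina compared to 130 for Angpt2. The libraries were stranded, but whether the counting used the strand is not given in the sources used here, so part of the Angpt2 counts could belong to Mcph1.

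The balance of the 2 angiopoietins, written as Angpt2 counts per Angpt1 count, was 2.21, 1.83 and 1.84 with DMSO and 1.83 and 1.21 with Sorbinil. Sorbinil replicate 1 was practically level with DMSO replicates 2 and 3, so the exact permutation p = 0.1 (adjusted p = 0.24) of the log2 difference of -0.39 rested on the ranks of nearly equal values.

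**Figure D2:**
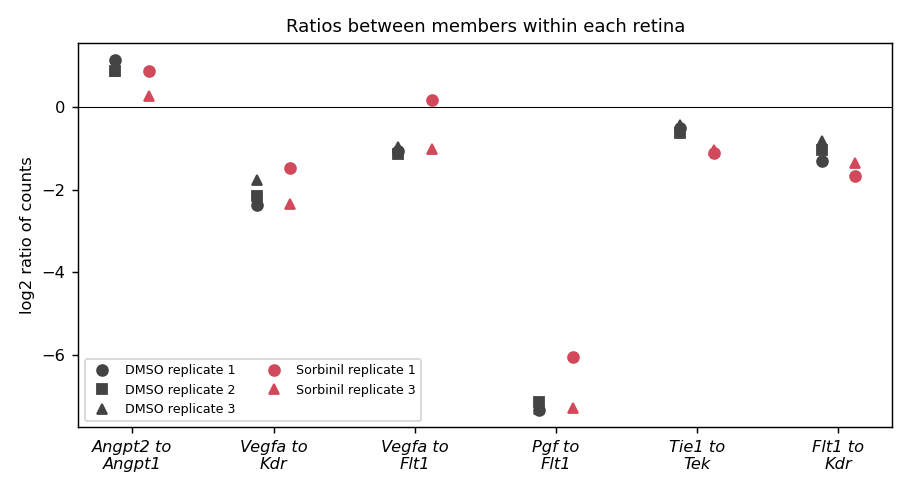
Ratios between pairs of the genes within each retina, as log2 of the ratio of counts, for 6 pairs; grey points are DMSO retinas and red points Sorbinil retinas, with the symbol giving the replicate number. Tie1 to Tek is lower in both Sorbinil retinas (log2 difference -0.55), while Vegfa to Flt1 and Pgf to Flt1 stand out in Sorbinil replicate 1 alone.

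Kdr, the main signaling receptor of VEGF (chr5:76093487-76139884, minus strand), was the most abundant of the 10 genes and is also known from neurons of the mouse retina. Its levels were 307, 256 and 175 CPM with DMSO and 111 and 277 CPM in Sorbinil replicates 1 and 3. Sorbinil replicate 3 was higher than 2 of the 3 DMSO retinas, whereas Sorbinil replicate 1 was the lowest retina. Kdr had a log2 fold change of -0.34 (95% interval -1.41 to 0.73, edgeR p-value of 0.461), and it changed direction to 0.18 without Sorbinil replicate 1.

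Flt1, the high-affinity receptor that holds Vegfa away from Kdr (chr5:147498414-147662826, minus strand), was at 125, 125 and 99.7 CPM with DMSO and 35.3 and 109 CPM with Sorbinil. Sorbinil replicate 3 was within the DMSO range and Sorbinil replicate 1 was far below it. For Flt1 the log2 fold change was -0.69 (95% interval -1.83 to 0.44, edgeR p-value of 0.184), but -0.09 when Sorbinil replicate 1 was dropped and -1.72 when Sorbinil replicate 3 was. The intervals of Kdr and Flt1 both included a 2-fold fall, so a fall of that size was not excluded for either gene. Flt1 counts per Kdr count were 0.409, 0.490 and 0.571 with DMSO and 0.318 and 0.393 with Sorbinil, which separated the groups by a small margin (log2 difference -0.46, exact permutation p = 0.2, adjusted p = 0.24).

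Vegfa, the ligand of both receptors (chr17:46327919-46343309, minus strand), varied least among the retinas. It measured 59.9, 57.6 and 51.4 CPM with DMSO and 40.0 and 54.1 CPM with Sorbinil, so that only Sorbinil replicate 1 was below the DMSO retinas. Its log2 fold change of -0.26 had a 95% interval of -0.67 to 0.16, which did not include a 2-fold change. Pgf, the ligand of Flt1 alone (chr12:85213409-85224564, minus strand), measured 0.776, 0.888 and 0.630 CPM with DMSO and 0.533 and 0.692 CPM with Sorbinil (log2 fold change -0.32, 95% interval -1.14 to 0.50), and the groups overlapped.

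The ratios of ligand to receptor stood out in a single retina. Vegfa counts per Flt1 count were 0.478, 0.460 and 0.515 with DMSO and 0.497 in Sorbinil replicate 3, compared to 1.13 in Sorbinil replicate 1. Pgf per Flt1 followed the same pattern, with a DMSO range of 0.00619 to 0.00710 and values of 0.0151 and 0.00636 in Sorbinil replicates 1 and 3. Vegfa per Kdr was between 0.195 and 0.294 with DMSO and was 0.360 and 0.195 with Sorbinil. The exact permutation p-values of the log2 differences were 0.2, 0.2 and 0.6, and the groups overlapped for all 3 ratios.

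Cdh5 (chr8:104828231-104871143, plus strand), the adhesion molecule of endothelial adherens junctions, was at 4.41, 4.64 and 1.84 CPM with DMSO and at 0.476 and 1.47 CPM with Sorbinil. Sorbinil replicate 3 was only slightly below DMSO replicate 3, which was itself well below the other DMSO retinas. The log2 fold change of -1.88 (SE 0.64, 95% interval -3.47 to -0.30) had an edgeR p-value of 0.0275 and an exact permutation p = 0.2. Cdh5 was called in all 12 alternative fits, with values of -1.30 without Sorbinil replicate 1 and -2.93 without Sorbinil replicate 3.

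Pecam1 (chr11:106543689-106641454, minus strand), an adhesion molecule of endothelium that platelets and leukocytes also carry, differed from Cdh5 in its pattern over the retinas. It measured 9.31, 9.47 and 7.43 CPM with DMSO, 9.17 CPM in Sorbinil replicate 1 and 5.69 CPM in Sorbinil replicate 3. It was therefore within the DMSO range in the retina in which Cdh5 was lowest, and below that range in the other. In the fit it had a log2 fold change of -0.24 (95% interval -0.88 to 0.41, edgeR p-value of 0.400), -0.61 without Sorbinil replicate 1 and 0.07 without Sorbinil replicate 3.

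Per kb of exon, so that genes of different length can be compared, the level in the DMSO retinas was highest for Kdr (26.7 ± 7.24 CPM per kb, SD, n = 3), followed by Vegfa (13.1 ± 1.02) and Flt1 (8.54 ± 1.08). The 2 VEGF receptors thus stood 32.2 and 10.3 times above Cdh5 (0.828 ± 0.355), with no overlap between neighbours in this upper part of the order. Pecam1 (0.874 ± 0.113), Cdh5, Tek (0.632 ± 0.169), Tie1 (0.523 ± 0.114) and Angpt2 (0.429 ± 0.0386) followed, and each overlapped with the next over the DMSO retinas. Pgf (0.261 ± 0.0443) and Angpt1 (0.147 ± 0.0185) were lowest and did not overlap with their neighbours. By their DMSO means the 3 genes called lower, Cdh5, Tek and Tie1, were in the middle of this order. Kdr, Vegfa, Flt1 and Pecam1 above them were not called, and neither were Angpt2, Pgf and Angpt1 below them.

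**Figure D3:**
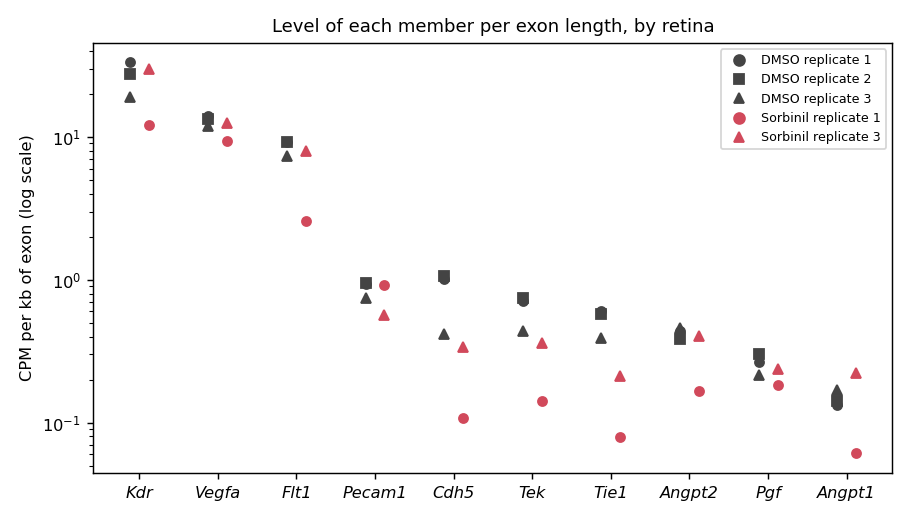
Level of each gene per kb of exon (CPM per kb, log axis) in each retina, with genes ordered by their DMSO mean; symbols give the replicate number and colour the group. The DMSO retinas lie between 7.30 and 33.3 CPM per kb for Kdr, Vegfa and Flt1, and at 1.06 or lower for the other 7 genes.

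The differences were larger in the retina that stood apart. The log2 difference from the DMSO mean in Sorbinil replicate 1 ranged from -2.75 (Cdh5) to 0.08 (Pecam1), with a median over the 10 genes of -1.27. In Sorbinil replicate 3 the median was -0.11, and Tie1, Cdh5 and Tek were lowest with -1.26, -1.17 and -0.75, followed by Pecam1 with -0.61. The other 6 genes were between -0.12 and 0.60 in that retina. All 10 genes had a fitted value below 0 in the comparison of the groups, with a median of -0.46, compared to 7653 of the 14992 genes tested, whose median was -0.01. Every Sorbinil retina was below every DMSO retina for 3 of the 10 genes, which were those called, and for 10.5% of all genes tested.

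**Figure D4:**
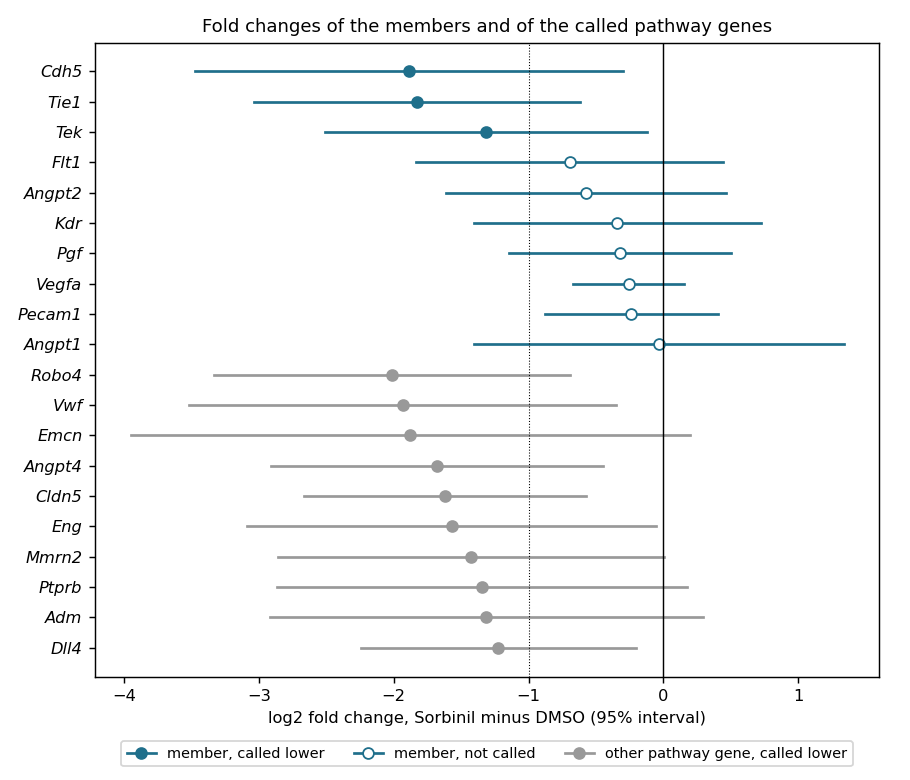
Log2 fold changes (Sorbinil minus DMSO) with their 95% intervals for the 10 genes (blue; filled, called lower; open, not called) and for the 10 called genes of the pathway lists (grey). The dotted line marks a 2-fold fall; Cdh5, Tie1 and Tek lie beyond it, at -1.88, -1.83 and -1.31.

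Of 101 further genes of these pathways and of endothelial junctions, 95 were tested, 10 were called lower (10.5%, compared to 1.35% of all genes tested, which is also the share to read beside each list) and none was called higher, with a median log2 fold change of -0.21. These lists too were chosen with earlier results of these data known, so their shares are not independent support. The endothelial junction and surface list held 6 of the 10 among its 24 tested genes (median -0.54). They were Robo4 (log2 fold change -2.01), a guidance receptor of endothelium, Vwf (-1.93), the clotting factor stored in endothelial cells, the sialomucin Emcn (-1.88), the tight junction protein Cldn5 (-1.62), the TGF-β coreceptor Eng (-1.57) and the matrix protein Mmrn2 (-1.43). Cldn5 was at 7.87, 7.67 and 4.99 CPM with DMSO and 1.37 and 3.06 CPM with Sorbinil, below all DMSO retinas in both. Ctnnb1 and Tjp1, the most abundant genes of that list and expressed in most cells, had log2 fold changes of -0.13 and 0.25 and were not called.

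Of the 19 tested genes of the angiopoietin-Tie list, 2 were called lower, with a list median of -0.04. Angpt4, a further Tie2 ligand, was at 0.672, 1.24 and 1.04 CPM with DMSO and 0.190 and 0.413 CPM with Sorbinil (log2 fold change -1.68, edgeR p-value of 0.0160). Ptprb, the endothelial phosphatase that acts on Tie2, was at 17.6, 14.8 and 11.3 CPM with DMSO and 2.09 and 9.34 CPM with Sorbinil (log2 fold change -1.34, edgeR p-value of 0.0737). For both genes the groups did not overlap. The broadly expressed Pik3ca (0.48) and Ptpn11 (-0.06) were the most abundant of that list.

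None of the 21 tested genes of the VEGF list was called (median log2 fold change -0.22). Prkca and Pak2, kinases downstream of the receptors and its most abundant genes, had values of 0.12 and 0.19. Dll4 (log2 fold change -1.22), the Notch ligand of endothelial tip cells, was the called gene among 14 of VEGF-Notch sprouting (median -0.30), whose most abundant genes Jag1 and Notch1 had 0.40 and -0.37. Adm (-1.31), which encodes adrenomedullin, was the called gene among 17 hypoxia regulators and targets (median -0.05), where Hif1a and Ldha had 0.18 and -0.07. Without Sorbinil replicate 1, the log2 fold changes of the 10 called pathway genes ranged from -1.55 (Robo4) to -0.63 (Ptprb). Without Sorbinil replicate 3 they ranged from -4.81 (Emcn, at 1 count in Sorbinil replicate 1) to -1.62 (Dll4).

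The genes most like Tek in their pattern over the 5 retinas, by the Euclidean distance between centred log2 CPM values, were Lef1 (0.158), Cxcl12 (0.300), Klf2 (0.342), Cldn5 (0.347) and Igfbp7 (0.358). Lef1, a transcription factor of Wnt signaling, was at 2.26, 2.40 and 1.51 CPM with DMSO and 0.495 and 1.30 CPM with Sorbinil, and its log2 fold change was -1.19. Among the other 9 genes the distance to Tek was smallest for Tie1 (0.585), Flt1 (0.683) and Cdh5 (0.772) and largest for Pecam1 (1.92). With 5 retinas, of which 1 stands apart, the distance gives much weight to that retina and is a description only.

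The markers of other cell types also differed from the DMSO mean, most of them mainly in Sorbinil replicate 1. In Sorbinil replicate 1 the median log2 difference from the DMSO mean was -1.86 for the 12 endothelial markers, -1.56 for 11 genes of pericytes and smooth muscle, -1.46 for 10 genes of Müller glia, -1.34 for 10 genes of retinal ganglion cells, -1.29 for 14 genes of inner-retina neurons, -1.15 for 6 genes of astrocytes, -0.93 for 12 of microglia and macrophages, -0.85 for 10 of pigment epithelium and choroid and 0.57 for 12 of rods. In Sorbinil replicate 3 it was -0.67 for the endothelial markers and -0.36 for pericytes and smooth muscle, but -0.34 for rods, -0.19 for retinal ganglion cells and between -0.08 and 0.18 for the remaining lists of retinal cells. The 4 tested of 9 blood cell genes had medians of -0.33 and 0.55 in Sorbinil replicates 1 and 3. No tested gene of any list was at 0 counts in all retinas. The part of these lists in the values of Tek, Tie1 and Cdh5 was not tested.

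**Figure D5:**
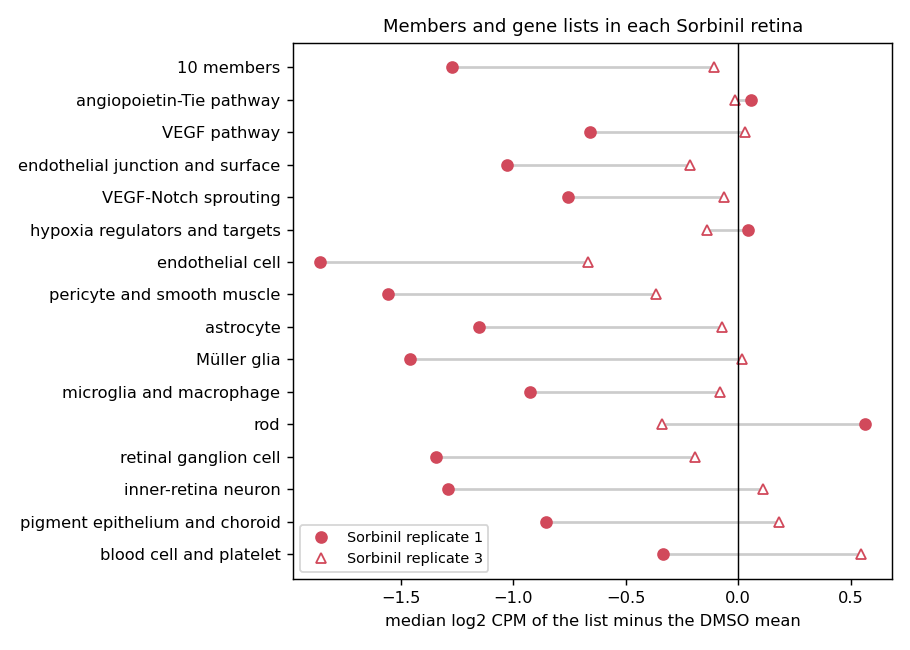
Median log2 CPM of the 10 genes, of the 5 pathway lists and of the 10 cell type lists in Sorbinil replicate 1 (filled circles) and Sorbinil replicate 3 (open triangles), each as the difference from the DMSO mean (vertical line at 0). The endothelial list is the lowest in both retinas, at -1.86 and -0.67, while most other lists are near 0 in Sorbinil replicate 3.

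The summed level of the 12 endothelial markers was 24.6 and 40.1 CPM in Sorbinil replicates 1 and 3, both below the DMSO range of 52.6 to 72.4 CPM. Of these markers 6 were called lower (Erg, Robo4, Vwf, Emcn, Cldn5 and Slco1a4), and both Sorbinil retinas were below all DMSO retinas for 10 of the 12, compared to 1.35% and 10.5% of all genes tested. The exceptions were Flt4 and Clec14a. Flt4 was at 7.32 to 8.35 CPM with DMSO and at 10.7 and 7.15 CPM in Sorbinil replicates 1 and 3. Clec14a was at 1.24 to 1.52 CPM with DMSO and at 0.419 and 1.55 CPM in Sorbinil replicates 1 and 3. The endothelial list shares Cldn5, Emcn, Vwf, Robo4 and other genes with the pathway lists, so the lists are not separate evidence.

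Set against the mean log2 CPM of these 12 markers in the same retina, Tek differed between the groups by -0.11 (exact permutation p = 0.5) and Cdh5 by -0.65 (exact permutation p = 0.3), and for both the groups overlapped. Tie1 was lower relative to the markers in both Sorbinil retinas, by -0.62 on the log2 scale (exact permutation p = 0.1, the smallest possible). The share of all genes that lay below in both Sorbinil retinas is not given here, so this describes Tie1 only. The marker mean also includes Emcn, which had 1 count in Sorbinil replicate 1. The other 7 genes, among them Kdr (0.86), Flt1 (0.40), Vegfa (1.04) and Pecam1 (1.04), lay above all DMSO values in both Sorbinil retinas when set against the markers. However, this held for 88.9% of all genes tested, since the marker mean itself was -1.88 and -0.73 from its DMSO mean on the log2 scale in Sorbinil replicates 1 and 3, so it is not a result about these 7 genes.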

How the data were processed

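Total RNA of injured retinas was sequenced, and per the paper's methods the authors trimmed adaptors, aligned them against GRCm39 with CLC Genomics Workbench, excluded a Sorbinil replicate after PCA (not analysed here) and deposited raw total counts for each gene. The annotation release, the treatment of reads on several genes and the use of strand in counting are not given in the sources used here. The sample labels and the paper name different total RNA kits and input amounts. Replicates are separate mice per the paper.

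The counts were filtered with filterByExpr (minimum count 10) and, after TMM scaling, compared with edgeR 4.0.16 (glmQLFit, glmQLFTest, R 4.3.3) between 3 DMSO and 2 Sorbinil retinas, with Benjamini-Hochberg adjustment over the 14992 genes tested. Differences in single retinas used log2 CPM with a prior count of 2, and ratios used counts without a pseudocount. Ratios and values relative to the endothelial markers were tested by exact two-sided permutation over 10 groupings. Totals of 56096541 to 90288552 counts give little precision at 21 counts, and without molecular identifiers counting error is a lower limit.

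The 10 genes and the gene lists were chosen with earlier results of these data known. Named were the 10 genes, the called genes and the 2 most abundant genes of each pathway list, the called endothelial markers, and the 5 genes most like Tek with a mean of at least 1 CPM. The alternatives were other filters, scalings, thresholds and tests (DESeq2 1.42.0 among them), the replicate number as a block, and leaving out each retina. The steps were tested on simulated data. Positions and exon lengths came from GENCODE vM39 and promoters from RefSeq.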

Additional observations from a re-analysis of the deposited data

How the results depend on the processing

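Tie1 and Cdh5 were called lower in all 12 alternative fits and Tek in 11. Over the retinas left out in turn, the number of the 10 genes called ranged from 2 (without Sorbinil replicate 1) to 7 (without Sorbinil replicate 3, with Angpt1, Angpt2, Kdr and Flt1 added), their median log2 fold change from -1.31 to -0.11, the pathway genes called lower from 5 to 32, all genes called lower from 129 to 2656, and the ratios that separated the groups from 3 to 6 of 6. The highest counts came without Sorbinil replicate 3, which leaves the retina that stands apart. Where 1 Sorbinil retina was left, the spread came from the DMSO retinas. A ratio then separated the groups whenever that retina lay outside the DMSO range. The log2 fold change of Angpt1 ranged from -1.26 to 0.62 and was 0.07 without DMSO replicate 3, that of Kdr from -1.14 to 0.18, and that of Pecam1 from -0.61 to 0.0687. Leaving out a DMSO retina gave -1.52 to -1.18 for Tek, -1.99 to -1.72 for Tie1 and -2.20 to -1.67 for Cdh5.

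At least 10 counts in every retina left 119 genes called lower in place of 203, and a stricter unadjusted p-value (0.05) left 129, with 6 pathway genes in place of 10 and the same 3 of the 10 genes. With the median of the endothelial markers as the reference, 3 in place of 7 genes were higher in both Sorbinil retinas. The cause was not tested. With the replicate number in the model (replicate block), 153 genes were called lower, 100 of them shared with the fit without the block, along with 9 pathway genes and the same 3 of the 10 genes. The deviations of same-numbered retinas correlated at -0.24 and -0.12. With 2 Sorbinil retinas, of which 1 stands apart, these values cannot decide whether the numbers pair the retinas. The precision of Tie1, Angpt1, Cdh5 and Pgf is limited by low counts in Sorbinil replicate 1, at 21, 23, 25 and 28. The called pathway genes Adm and Emcn were lower still in that retina, at 6 and 1 counts. Both were removed by the filter of at least 10 counts in every retina, so they were not tested in that fit.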

Other observations

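Genes of mural cells, which ensheathe the endothelium, were measured as well. Of 11 genes of pericytes and smooth muscle, 3 were called lower in edgeR, compared to 1.35% of all genes tested, and none higher (median of the list -0.72 on the log2 scale). The 3 belong to the contractile and filament machinery of smooth muscle. Acta2, the smooth muscle actin, was at 1.87, 1.36 and 2.25 CPM with DMSO and 0.590 and 0.943 CPM with Sorbinil (log2 fold change -1.24, 95% interval -2.18 to -0.31). Tagln (-1.06, 95% interval -2.06 to -0.06) and Des (-1.50, 95% interval -3.05 to 0.05) were below every DMSO retina in both Sorbinil retinas as well. This held for 10.5% of all genes tested. Des had only 4 and 22 counts in Sorbinil replicates 1 and 3. The other 8 genes were not called. Rgs5, a pericyte gene, was at 59.4, 55.2 and 41.7 CPM with DMSO and 13.3 and 40.0 CPM with Sorbinil, below the DMSO retinas in both (log2 fold change -0.97, edgeR p-value of 0.0848). The smooth muscle myosin Myh11 had -0.79, also with both Sorbinil retinas below, and Kcnj8, Abcc9, Pdgfrb, Notch3 and Cspg4, whose groups overlapped, had -0.72, -0.68, -0.50, -0.42 and -0.18. Vtn (-0.14), the most abundant gene of that list, is also expressed by photoreceptors and differed by 0.23 and -0.64 from the DMSO mean in Sorbinil replicates 1 and 3.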
